A study of Homo sapiens with 4 samples.

Results

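Histone lysine methyltransferases and demethylases were examined in darolutamide-resistant prostate cancer cells after knockdown of the long noncoding RNA LOC730101. The members were taken from the count table by gene symbol. They are the genes named KDM, KMT or SETD with a number, together with EZH1, EZH2, SUZ12, EED, NSD1, NSD2, NSD3, EHMT1, EHMT2, SUV39H1, SUV39H2 and DOT1L, leaving out the 1 match on the Y chromosome. This gave 48 of the 60606 genes in the table, of which 29 are methyltransferases or core subunits of Polycomb repressive complex 2 (PRC2) and 19 are demethylases. The rule uses symbols and no measured value, though it was written with earlier results of these data known. Not every member is an established histone enzyme, since several SETD proteins methylate other substrates and KDM8 is better known as a hydroxylase.

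All 4 libraries were polyA RNA from LNCaP-DaroR cells (DaroR). LNCaP is a prostate cancer cell line from a lymph node metastasis, and DaroR is the line derived from it by growth in rising concentrations of darolutamide, an antiandrogen, in which the cells were then kept. The siControl group comprised 2 libraries of DaroR cells given control siRNA, and the siLOC730101 group comprised 2 libraries of DaroR cells given siRNA against LOC730101. Parental LNCaP cells are not analysed here, so the comparison is between siRNAs within 1 resistant line, and whether that line is a clone or a pool is not given in the sources used here. Nothing in the labels says that libraries of a group came from separate cultures, and p-values measure only the spread between these libraries, which may be technical.

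Histone lysine methylation is written by enzymes with a SET domain, and by DOT1L, which has none. Methylation of H3K4 and H3K36 is found at active promoters and along transcribed genes, whereas H3K9 methylation and the H3K27 methylation placed by PRC2 mark silenced chromatin. The marks are removed by the flavin-dependent enzymes KDM1A and KDM1B and by the Jumonji C (JmjC) enzymes, which are dioxygenases that use iron and 2-oxoglutarate. In prostate cancer, EZH2 is known for its high expression in advanced disease, and KDM1A, KDM3A and KDM4 enzymes are known as transcriptional coregulators.

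The libraries held 39213498 to 53368158 counts, and the siLOC730101 total was 80.4% of the siControl mean. Levels are given as normalized CPM, the reads of a gene relative to the TMM-scaled library total. The quasi-likelihood test of edgeR was applied to the 19349 genes left by its expression filter, p-values were adjusted over all of them by the Benjamini-Hochberg method, and a gene was called at an adjusted p under 0.05. With 2 libraries against 2, the smallest two-sided p of an exact permutation test for 1 gene is 0.333. LOC730101 was 47.4 and 50.6 CPM in siControl and 15.4 and 17.9 CPM in siLOC730101, with a log2 fold change of -1.56 (SE 0.116, adjusted p = 4.34e-06, edgeR). The 9 luminal markers, among them KLK3, which encodes prostate-specific antigen, summed to 6860 to 7510 CPM in siControl and 7400 to 7810 CPM in siLOC730101, and none was at 0 in all libraries. Summed leukocyte markers reached at most 0.0925 CPM and basal markers at most 0.632 CPM, with 2 of 4 and 2 of 3 markers at 0 in every library. Summed neuroendocrine markers were 2.24 to 2.37 CPM in siControl and 2.09 to 2.95 CPM in siLOC730101, with 2 of 3 markers at 0. Fibroblast markers summed to 13.1 to 17.2 and 12.6 to 14.4 CPM, with 2 of 5 at 0, and endothelial markers to 6.64 to 9.44 and 5.84 to 7.01 CPM, with 1 of 3 at 0. In these bulk libraries fewer cells expressing a gene and less RNA per cell cannot be told apart.

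No histone methyltransferase or demethylase was called in either direction. Of the 48 members, 46 passed the expression filter, while KDM4E had 0 counts in all libraries and KDM4F had 2 counts in 1 siLOC730101 library and 0 in the others. Over all genes tested, 55 were called, or 0.284%. At an unadjusted p under 0.05 there were 3 members, NSD2 and EZH2 with lower values and KDM4D with higher values in siLOC730101. The share over all genes tested at that level was 10.8% in either direction and 4.39% in the lower direction. DESeq2 called 1 member, NSD2 (adjusted p = 0.0405), where 3.12% of the genes for which it gave an adjusted p were called.

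The fold changes of the members were small. They ranged from -0.47 for KDM8 to 0.96 for KDM4D on the log2 scale, with a median of -0.03 against 0.00 over all genes tested. A value below 0 was found in 27 of 46 members (58.7%), against 50.4% of all genes tested. The direction of the median rested on single libraries, since it was 0.01 with 21 members below 0 without siLOC730101 replicate 2, and -0.06 with 31 below 0 without siLOC730101 replicate 1. The 95% confidence interval lay within a 1.5-fold change in either direction for 42 of 46 members, and it included 0 for 43. The groups did not overlap in 21 members (45.7%), 13 lower and 8 higher, and in 41.7% of all genes tested. The plot of log2 fold changes shows all 46 members by role.

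**Figure D1:**
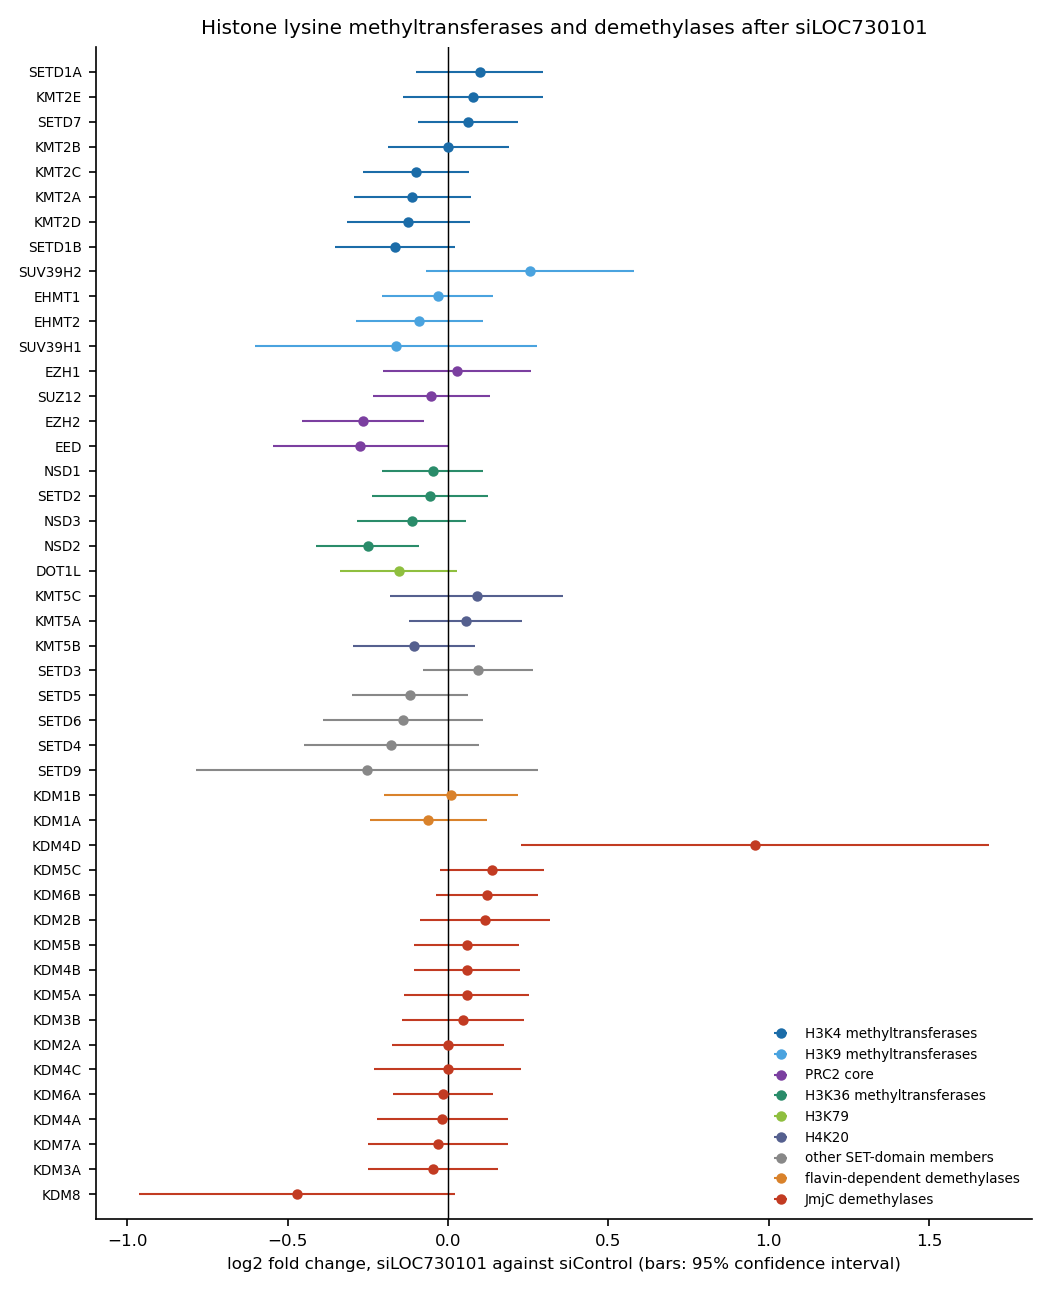
Log2 fold change of siLOC730101 against siControl for each of the 46 members tested, grouped and coloured by role; points are edgeR estimates from 2 libraries against 2 and bars are 95% confidence intervals. The intervals of 43 members cross 0, and those of NSD2, EZH2 and KDM4D do not.

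The levels of the members spanned 86.6-fold when CPM was divided by the length of the canonical transcript. Counts cover all merged exons of a gene, so this scale compares genes only roughly. SETD7, which monomethylates H3K4 and non-histone proteins, was the highest on this scale, with a siControl mean of 58.0 CPM per kilobase. It was followed by KDM6A, an H3K27 demethylase, with a level of 54.3 CPM per kilobase, and by SETD3, an actin histidine methyltransferase, with a level of 41.3 CPM per kilobase. The SETD7 libraries lay at 55.5 to 60.9 and the KDM6A libraries at 51.9 to 55.5 CPM per kilobase, so that the ranges of these neighbours met, while SETD3 (40.1 to 45.3) and KMT5A (38.7 to 43.1) overlapped. The lowest levels were those of KDM8, at 2.4 CPM per kilobase, and KDM4D, at 0.67 CPM per kilobase. EZH2, the main catalytic subunit of PRC2 in dividing cells, was at 34.6 CPM per kilobase, and its paralog EZH1 was at 8.02 CPM per kilobase, a ratio of 4.31 between levels. The order depends on the length used. When CPM was divided by the merged exon length of the count table, the ratio between the levels of EZH2 and EZH1 was 1.61. EZH2 moved from rank 6 to rank 16, KDM6A from rank 2 to rank 7 and KDM1A from rank 8 to rank 32. SETD7 stayed first and KDM4D last.

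**Figure D2:**
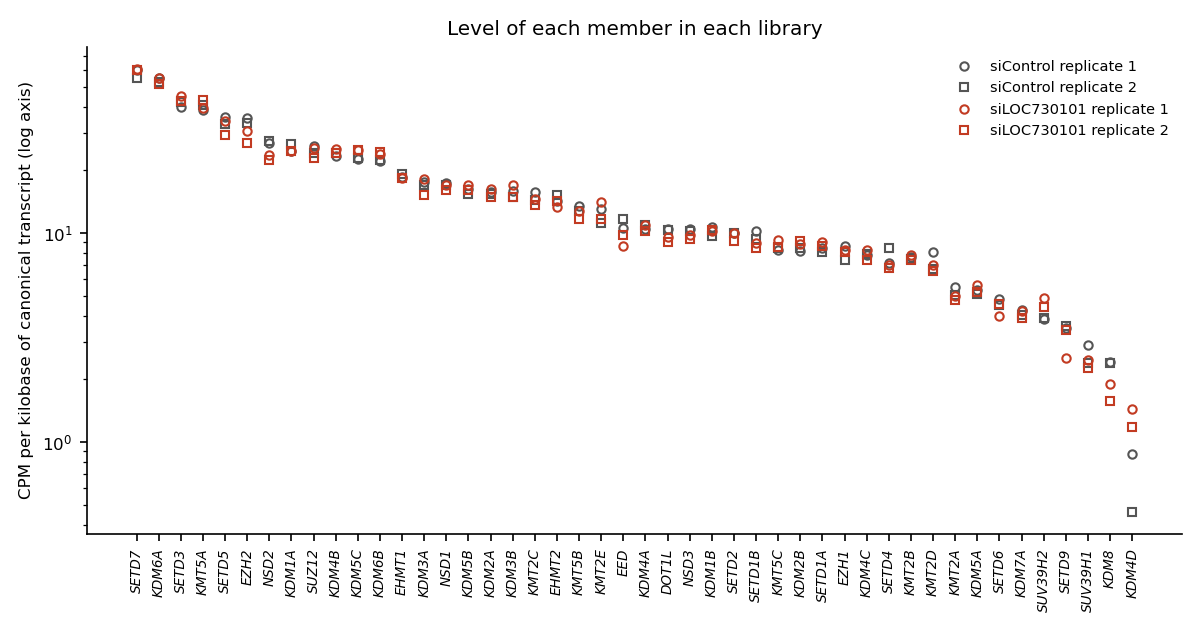
Level of each of the 46 members in each library, as normalized CPM per kilobase of canonical transcript on a log axis, ordered by the siControl mean; grey symbols are siControl and red symbols siLOC730101, with circles for replicate 1 and squares for replicate 2. The order runs from SETD7 at 58.0 to KDM4D at 0.67 CPM per kilobase, and the siLOC730101 symbols of KDM4D lie above its siControl symbols.

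PRC2 methylates H3K27 through EZH2 or EZH1 and requires EED, which binds the finished mark, and SUZ12, the scaffold. EZH2 (chromosome 7, 148807257 to 148884321, GRCh38) was 94.6 and 89.2 CPM in siControl and 81.4 and 71.5 CPM in siLOC730101. Both siLOC730101 libraries lay below both siControl libraries. The group means were 91.9 ± 3.8 and 76.5 ± 7.02 CPM (SD, n = 2), a log2 fold change of -0.26 (SE 0.0898, 95% confidence interval -0.46 to -0.07), which did not pass the threshold (adjusted p = 0.254, edgeR). EED showed a difference of like size at a lower level, with 22.03 and 24.38 CPM in siControl and 18.1 and 20.3 CPM in siLOC730101. Its groups did not overlap either, and its log2 fold change was -0.27 (SE 0.128, adjusted p = 0.462, edgeR). SUZ12 was 118 and 109 CPM in siControl and 115 and 103 CPM in siLOC730101, and EZH1 was 39.9 and 34.4 against 38.3 and 37.4 CPM. The groups of both genes overlapped. Taking the 4 subunits, 3 were below 0, with a median log2 fold change of -0.16. Leaving out siLOC730101 replicate 1, the library with the higher EZH2 value in its group, gave EZH2 a log2 fold change of -0.35. Leaving out siLOC730101 replicate 2 gave -0.18.

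A promoter of EZH2 is shown because EZH2 and other cell cycle genes are known targets of E2F transcription factors, and E2F target genes were a subject of the study. The sequence is that of RefSeq on GRCh38.p14, chr7:148884242-148884541, minus strand, from 250 bases before to 50 bases after the transcription start. Capitals mark an E2F motif that begins 1 base after the start. The table holds a further EZH2 promoter, chr7:148883436-148883735, in which none of the motifs searched was found.
EZH2 promoter: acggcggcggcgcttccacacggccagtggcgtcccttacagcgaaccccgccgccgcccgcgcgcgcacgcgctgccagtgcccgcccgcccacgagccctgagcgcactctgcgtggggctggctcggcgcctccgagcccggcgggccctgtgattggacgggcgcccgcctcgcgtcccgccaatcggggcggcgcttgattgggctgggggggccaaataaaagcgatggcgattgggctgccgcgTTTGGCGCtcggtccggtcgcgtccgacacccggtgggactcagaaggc

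Among the H3K36 methyltransferases, NSD1, NSD2 and NSD3 place 1 or 2 methyl groups and SETD2 the third. NSD2 (chromosome 4, 1871393 to 1982207, GRCh38), a gene activated by translocation in multiple myeloma, had the smallest p of all members. It was 204 and 209 CPM in siControl and 179 and 169 CPM in siLOC730101. Each siLOC730101 library lay below both siControl libraries, and the libraries of each group were close to each other. The means were 207 ± 3.59 and 174 ± 6.85 CPM (SD, n = 2), and the log2 fold change was -0.25 (SE 0.0749, 95% confidence interval -0.41 to -0.09, adjusted p = 0.179, edgeR). NSD2 passed the threshold with DESeq2, as given above, and in edgeR with the replicate number as a block (adjusted p = 0.0295). The block fit called 652 of the 19349 genes tested, against 55 in the fit without a block, and NSD2 was the 1 member among them. NSD2 did not pass in edgeR with any other scaling. With 1 library left out, its log2 fold change ran from -0.28 to -0.21. NSD3 was 112 and 110 CPM in siControl and 105 and 101 CPM in siLOC730101, a log2 fold change of -0.11. SETD2 was 85.0 and 85.2 CPM in siControl and 85.5 and 78.1 CPM in siLOC730101, and its groups overlapped. All 4 members of this role were below 0, with a median log2 fold change of -0.08.

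The promoter of NSD2 also holds an E2F motif, in capitals, 77 bases before the start in chr4:1871143-1871442 of GRCh38.p14, plus strand.
NSD2 promoter: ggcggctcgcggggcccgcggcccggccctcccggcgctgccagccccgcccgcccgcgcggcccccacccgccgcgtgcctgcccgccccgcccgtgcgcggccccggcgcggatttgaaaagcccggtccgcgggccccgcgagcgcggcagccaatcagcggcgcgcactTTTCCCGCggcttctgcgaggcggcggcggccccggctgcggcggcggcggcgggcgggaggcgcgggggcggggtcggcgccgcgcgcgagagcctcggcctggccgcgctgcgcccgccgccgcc

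The motifs searched were TTTGGCGC, TTTCCCGC, TTTCGCGC and TTTGCCGC, each on both strands, in windows of 300 bases. At least 1 of them was found in a promoter of 5 of the 44 members in the RefSeq promoter table (11.4%) and of 6.33% of the 12236 tested genes in it. Counted by promoter instead of by gene, the share was 3.31% of all 35116 promoters. SETD1B, NSD3, KDM4E and DOT1L were not matched. The other 3 members with a motif are shown by the stretch around it, for comparison with EZH2 and NSD2. That of EZH1 lies on the opposite strand, and KDM1B holds the same motif in 2 copies.
SUZ12: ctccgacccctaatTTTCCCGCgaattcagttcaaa
KDM1B: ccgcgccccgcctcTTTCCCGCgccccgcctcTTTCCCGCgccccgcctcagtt
EZH1: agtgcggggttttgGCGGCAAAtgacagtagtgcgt
These 5 members had log2 fold changes on either side of 0, with 3 of 5 below 0 and a median of -0.05. Of the 38 tested members in the table without a motif, 21 (55.3%) were below 0, with a median of -0.02. Over all tested genes the share below 0 was 50.9% with a motif and 46.5% without, and the medians were -0.01 and 0.02. A motif match is a description of the letters and does not show that a factor binds there.

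The H3K4 methyltransferases comprise KMT2A to KMT2D, SETD1A and SETD1B, the catalytic subunits of COMPASS complexes, with SETD7 and KMT2E, for which methyltransferase activity is in doubt. SETD1B was 87.2 and 79.9 CPM in siControl and 76.7 and 72.3 CPM in siLOC730101. The groups did not overlap, and the log2 fold change was -0.17 (SE 0.0873, adjusted p = 0.532, edgeR). KMT2D, an enhancer H3K4 methyltransferase and a coactivator of nuclear receptors, was 167 and 139 CPM in siControl and 145 and 136 CPM in siLOC730101. The 2 siControl libraries differed by more than the group means, which were 153 ± 19.5 and 140 ± 5.97 CPM (SD, n = 2). Its log2 fold change was -0.12, and it turned to 0.02 without siControl replicate 1. In this role 4 of 8 members were below 0 and 4 above, with a range from -0.17 to 0.10.

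For the H3K9 enzymes, SUV39H1 and SUV39H2 trimethylate H3K9 in heterochromatin, while EHMT1 and EHMT2 form the heterodimer that dimethylates it in euchromatin. SUV39H2 was the one member of this role above 0. It was 11.8 and 12.0 CPM in siControl and 14.97 and 13.51 CPM in siLOC730101, without overlap, and the log2 fold change was 0.26 (SE 0.152, adjusted p = 0.584, edgeR). EHMT2 was 56.5 and 60.6 CPM in siControl and 53.1 and 56.9 CPM in siLOC730101, with overlapping groups and a log2 fold change of -0.09.

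DOT1L, the H3K79 methyltransferase, was 80.7 and 78.5 CPM in siControl and 73.6 and 69.5 CPM in siLOC730101. Its groups did not overlap, and its log2 fold change was -0.15 (SE 0.0852, adjusted p = 0.552, edgeR). Among the H4K20 enzymes, KMT5A adds the first methyl group and KMT5B and KMT5C the next. KMT5B was 77.1 and 73.2 CPM in siControl and 73.0 and 66.6 CPM in siLOC730101, and KMT5C was 18.8 and 19.4 CPM against 21.0 and 19.7 CPM. The directions of these paralogs were opposite, with log2 fold changes of -0.11 and 0.09, and neither passed the threshold.

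The other SET-domain members are SETD3 and SETD6, which methylate non-histone proteins, and SETD4, SETD5 and SETD9. SETD4 was 21.4 and 25.4 CPM in siControl and 21.1 and 20.3 CPM in siLOC730101, a log2 fold change of -0.18. SETD5 was 250 and 231 CPM in siControl and 239 and 205 CPM in siLOC730101, a log2 fold change of -0.12 with overlapping groups. SETD9 was 4.9 and 5.0 CPM in siControl and 3.53 and 4.79 CPM in siLOC730101, a log2 fold change of -0.25 (SE 0.25). In this role 4 of 5 members were below 0, and SETD3 was the one above.

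The flavin-dependent demethylases remove 1 or 2 methyl groups. KDM1A (LSD1), part of the CoREST complex, was 75.9 and 82.3 CPM in siControl and 75.8 and 75.8 CPM in siLOC730101. The siLOC730101 libraries lay just below the lower siControl library, and the 95% confidence interval of its log2 fold change of -0.06 reached from -0.24 to 0.12. KDM1B was 48.5 and 43.8 CPM in siControl and 46.3 and 46.6 CPM in siLOC730101, with the siLOC730101 libraries between the siControl libraries.

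The JmjC demethylases held both the highest and the lowest fold change of all members, each at a low level. KDM4D (chromosome 11, 94973709 to 94999519, GRCh38), which demethylates H3K9 and is best known from the testis, was 2.59 and 1.37 CPM in siControl and 4.24 and 3.48 CPM in siLOC730101. These values rest on only 64 to 140 counts per siControl library and 132 to 174 counts per siLOC730101 library. The groups did not overlap, and the siControl libraries lay far apart for their level. The log2 fold change was 0.96 (SE 0.343, 95% confidence interval 0.23 to 1.69, adjusted p = 0.281, edgeR). It was 1.5 without siControl replicate 1, and its lowest value with 1 library left out was 0.58. DESeq2 gave KDM4D no adjusted p, so it could not be called there. KDM4D has close paralogs in KDM4E and KDM4F, and reads shared among such copies could not be assigned with certainty.

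KDM8, at the other end, was 5.88 and 5.79 CPM in siControl and 4.6 and 3.82 CPM in siLOC730101. Both siLOC730101 libraries were lower, and the log2 fold change was -0.47 (SE 0.232, adjusted p = 0.493, edgeR). The KDM8 exons share 14.5% of their bases with another annotated gene.

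The groups did not overlap in 5 of the 15 JmjC members tested (33.3%), against 41.7% of all genes tested. At higher levels these were KDM5C, KDM6B and KDM2B. KDM5C, an X-linked H3K4 demethylase, was 132 and 133 CPM in siControl and 145 and 146 CPM in siLOC730101. Its log2 fold change was 0.14 (SE 0.0759, adjusted p = 0.556, edgeR). KDM6B, an H3K27 demethylase induced in inflammation, was 148 and 151 CPM in siControl and 161 and 163 CPM in siLOC730101, a log2 fold change of 0.12 (SE 0.0748, adjusted p = 0.606, edgeR). KDM2B, an H3K36 demethylase that brings a Polycomb complex to CpG islands, was 43.4 and 45.1 CPM in siControl and 47.1 and 48.7 CPM in siLOC730101, also 0.12. None of these 3 genes passed the threshold over all genes.

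The groups of KDM3A and KDM4A, known as transcriptional coregulators, overlapped. KDM3A, an H3K9 demethylase, was 81.7 and 78.6 CPM in siControl and 84.4 and 70.9 CPM in siLOC730101, a log2 fold change of -0.05. KDM4A, which acts on H3K9 and H3K36, was 47.3 and 48.8 CPM in siControl and 49.1 and 45.9 CPM in siLOC730101, a log2 fold change of -0.02. Of the exon bases of KDM4A, 48.8% are shared with the antisense gene KDM4A-AS1 and another gene, and counting without strand does not separate their reads.

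**Figure D3:**
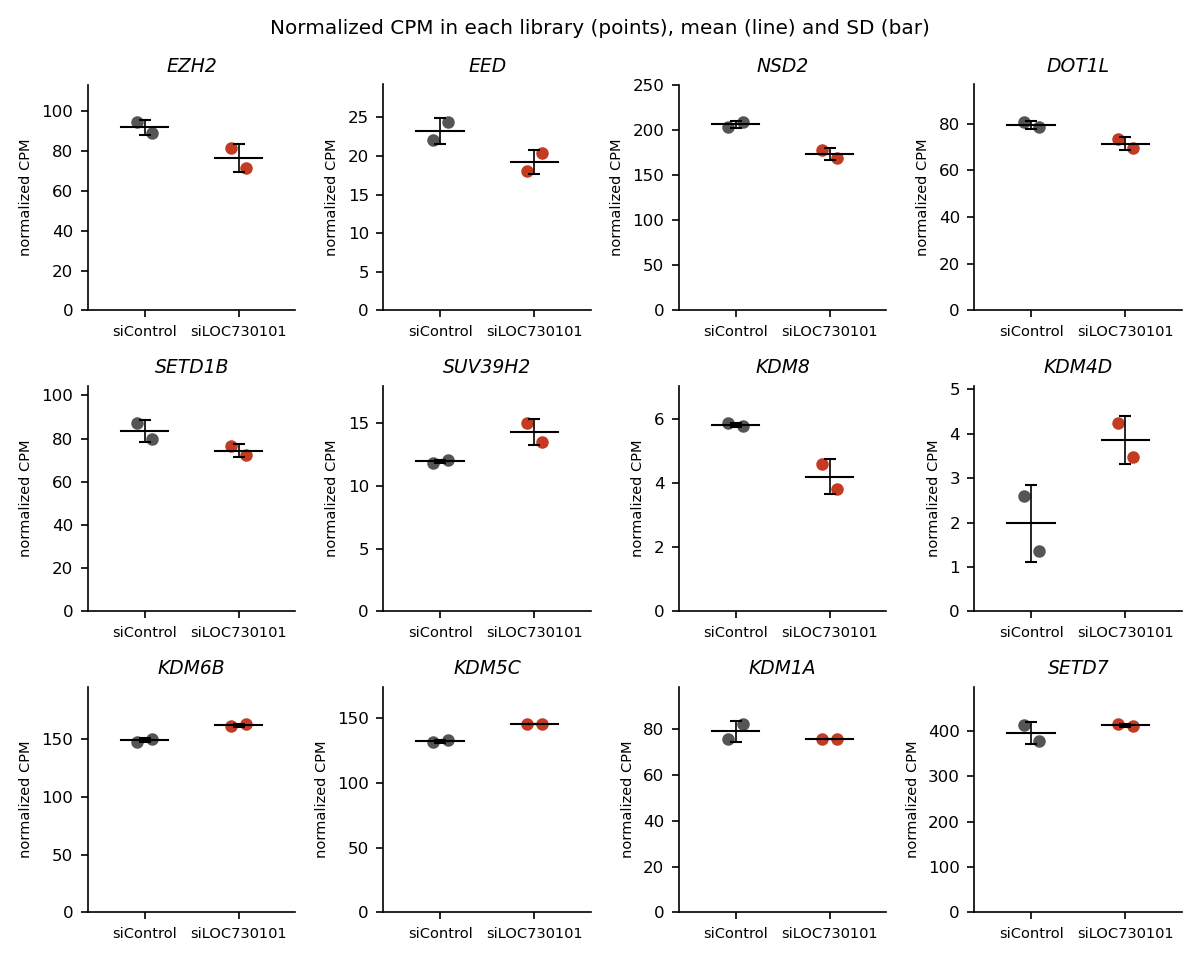
Normalized CPM of 12 members in each library, with siControl in grey and siLOC730101 in red; points are libraries, the horizontal line is the group mean and the bar its SD (n = 2), and each vertical axis starts at 0. The siLOC730101 libraries lie below the siControl libraries for EZH2, EED, NSD2, DOT1L, SETD1B, KDM8 and KDM1A, above them for SUV39H2, KDM4D, KDM6B and KDM5C, and overlap them for SETD7.

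When the roles were put side by side, 20 of the 29 methyltransferases and PRC2 core subunits (69%) and 7 of the 17 demethylases tested (41.2%) were below 0. The median log2 fold changes were -0.10 and 0.01. Without siLOC730101 replicate 2 the demethylase count was 2. These genes are long. The median exon length of the members was 10.4 kilobases, against 4.24 kilobases over all genes tested. Over all genes tested the correlation of log2 fold change with log2 exon length was only 0.0328. A smooth trend on exon length stood at -0.04 at the members' median length. The 1838 genes of nearly that length had a median log2 fold change of -0.04, and 58.7% of them were below 0, the same share as among the members. After this trend was subtracted, the median of the members was 0.02 with 20 of 46 below 0. The methyltransferases and PRC2 core then had a median of -0.03 with 17 of 29 below 0, and the demethylases a median of 0.07 with 3 of 17 below 0. Whether exon length plays a part in the values of the members was not tested.

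**Figure D4:**
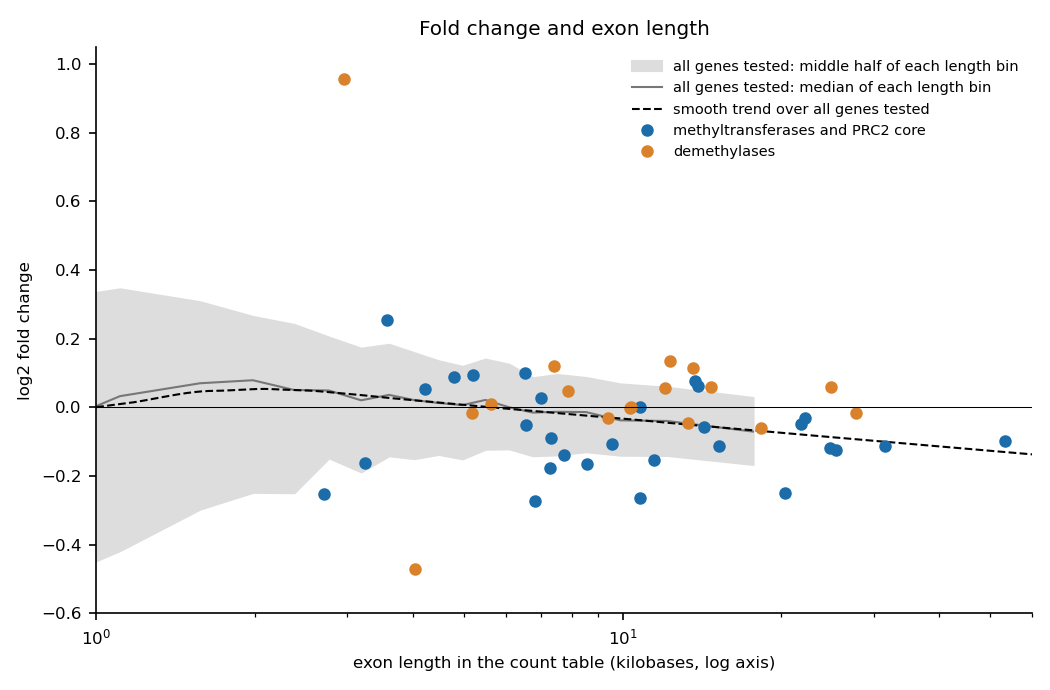
Log2 fold change of siLOC730101 against siControl by exon length in the count table (kilobases, log axis), with methyltransferases and PRC2 core in blue and demethylases in orange; the grey line and band are the median and the interquartile range of length bins over all genes tested, and the dashed line is the smooth trend. The dashed line is at -0.04 at 10.4 kilobases, the median length of the members, and KDM4D at 0.96 and KDM8 at -0.47 are farthest from it.

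Sites for miR-1-3p were examined because the study relates LOC730101 to this microRNA, which was not measured in these libraries. The mature sequence in RefSeq is shown with its seed, bases 2 to 8, in capitals (GRCh38.p14, chr20:62554351-62554372, plus strand).
miR-1-3p: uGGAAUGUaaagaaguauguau
The complement of the seed, ACATTCC, was found in the canonical 3′ UTR of 6 of the 46 members tested (13.0%). It was found in 13.3% of all tested genes with an annotated 3′ UTR. The sites, in capitals with their surroundings, are given on GRCh37 in the direction of the transcript. They are at chr5:176726027-176726033 in NSD1, chr6:31847732-31847738 in EHMT2, chr7:104753993-104753999 in KMT2E, chr12:121867833-121867839 in KDM2B and chr19:2230306-2230312 in DOT1L.
NSD1: atgtgtagACATTCCaagtcact
EHMT2: cctttcacACATTCCtgaccaga
KMT2E: gtaagtgaACATTCCagctgttt
KDM2B: acaagaagACATTCCtgtcggag
DOT1L: tcgccaccACATTCCtcggaggc
NSD3 was the sixth member and had 2 sites. Log2 fold changes of members with a site were -0.05 for NSD1, -0.09 for EHMT2, 0.08 for KMT2E, 0.12 for KDM2B, -0.15 for DOT1L and -0.11 for NSD3. Of these 6 members, 4 were below 0, with a median of -0.07, and of the 40 members without a site 23 (57.5%) were below 0, with a median of -0.02. Over all tested genes with an annotated 3′ UTR the share below 0 was 52.1% with a site and 45.1% without. Median 3′ UTR lengths were 3191 and 1106 bases, so that genes with and without a site differed in length as well. EZH2 and NSD2 had no such match in these UTRs.

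Partners of these enzymes were examined with a list of 53 genes, including subunits of COMPASS, PRC2, CoREST, H3K9 and DOT1L complexes and further methyltransferases and JmjC proteins, of which 51 were tested. None was called in the edgeR fit on all 4 libraries or with DESeq2. At an unadjusted p under 0.05 there were 2 of 51, against 10.8% of all genes tested. These 2 are named here after their values were seen. CBX5 (HP1 alpha), which binds methylated H3K9, was 423 and 398 CPM in siControl and 364 and 341 CPM in siLOC730101, a log2 fold change of -0.22 (SE 0.0735, adjusted p = 0.24, edgeR). DPY30, a COMPASS core subunit, was 66.4 and 69.2 CPM in siControl and 75.4 and 86.3 CPM in siLOC730101, a log2 fold change of 0.25 (SE 0.0918, adjusted p = 0.285, edgeR). Of the 51 partners 24 were below 0 (47.1%), with a median log2 fold change of 0.00. Below 0 were 4 of 7 PRC2 partners, 7 of 8 CoREST partners, 6 of 9 H3K9 partners, 4 of 11 COMPASS core subunits and 0 of 4 DOT1L partners. Of the methyltransferases outside the rule, 1 of 7 was below 0 (median 0.06), and of the other JmjC proteins 2 of 5 (median 0.03).

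Reads were counted without strand. Of the 48 members, 24 share exon bases with other annotated genes, and 6 share over 10% of them, namely KDM4A, SETD6, SUV39H1, KMT2A, KDM8 and DOT1L. EZH2 and KDM4D share none. The pseudogene SUZ12P1 was counted 641 to 678 times per siControl library and 456 to 561 times per siLOC730101 library. Reads that match both copies may affect the value of SUZ12, which was not tested.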

How the data were processed

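RNA of 4 libraries was analysed from 1 table of counts that the authors made with featureCounts 2.0.1 and deposited without normalization. The table header names hg38 and gencode 41, and sets no option for read pairs or strand. The paper's methods and the submitters' processing notes differ in aligner and build, so the aligner is not stated here. Among genes with 1 to 20 counts, 66.0% to 70.1% of values were even, and counts may be of mates rather than fragments. Totals were 39213498 to 53368158 counts. All count columns were mapped to samples by name, and every row had a gene name.

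Counts were filtered with filterByExpr, scaled with TMM and fitted with edgeR 4.0.16 (legacy quasi-likelihood method, not robust, R 4.3.3) with the group as the only term. DESeq2 1.42.0, other scalings and filters, halved counts, the replicate number as a block and fits without each library were alternatives. The procedure was tested on simulated data. Libraries of a group differed by more than sampling noise (chi-square over its degrees of freedom 11.3 for siControl and 14.2 for siLOC730101). The biological coefficient of variation was 0.147.

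Exon lengths, coordinates and the overlap of exons came from the table (GRCh38). Canonical transcripts and 3′ UTRs came from a GRCh37 annotation, joined by symbol. The trend on log2 exon length was a symmetric loess fit. Members named with values were the 2 with the smallest p in each role, the 5 highest and the 5 lowest log2 fold changes, and EZH2, KDM1A, KDM3A, KDM4A, NSD2, DOT1L, KMT2D and SETD2. SUZ12 and EZH1, members at the ends of the order of levels and members with a motif or microRNA site were named beside this rule, after their values were seen. The members, lists and motifs were chosen with earlier results of these data known. A gene of the luminal marker list, is not reported here.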

Additional observations from a re-analysis of the deposited data

How the results depend on the processing

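The members' median was -0.056 to 0.012 without 1 library, with 21 to 31 members below 0. No member was called with any other scaling or filter, with robust moderation, with the legacy method off or with halved counts. These are fits on all 4 libraries. Fits without 1 library leave a lone library in 1 group, and their calls of members are not given. DESeq2 called 1 lower member (NSD2), where 3.12% of the genes for which it gave an adjusted p were called. The members with an unadjusted p under 0.05, 3 in the edgeR fit above, numbered 7 with upper-quartile factors, 7 with library size only, and 2 to 5 without 1 library. The 55 genes called over the whole table numbered 93 with library size only, 437 with no filter beyond 1 count, 173 with a mean above 50, 297 with DESeq2, 111 with the legacy method off, 148 with halved counts and 137 to 1195 without 1 library, the highest without siLOC730101 replicate 1. No partner gene was called in any fit on all 4 libraries except that with the replicate block, given below. Less the trend on exon length, the members' median was 0.02 and 3 demethylases were below 0, against 2 to 9 without 1 library; alternatives for this count were added after it had been seen.

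With the replicate number as a block, 652 of the 19349 genes tested were called. Among them were 1 of 46 members (NSD2, lower, adjusted p = 0.0295, edgeR) and 1 partner gene. The numbers are not known to pair the libraries, as deviations of same-numbered libraries correlated at 0.0292 over 14245 genes. Small values changed sign. KDM1B was -0.022 with upper-quartile factors, -0.028 with library size only and -0.007 with a mean above 50. Without 1 library, log2 fold changes ran from -0.06 to 0.087 for KDM1B, -0.118 to 0.001 for KDM1A, -0.169 to 0.071 for KDM3A, -0.057 to 0.028 for KDM4A, -0.244 to 0.015 for KMT2D and -0.114 to 0.004 for SETD2. The cause was not tested. With 2 libraries a group, fits without 1 library assume that the lone library varies like the others.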
